A study of Mus musculus with 12 samples.

Results

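Long intergenic noncoding RNAs (lincRNAs) are long transcripts, usually capped, spliced and polyadenylated like messenger RNAs, that carry no long open reading frame and lie outside protein-coding genes. The 242 lincRNA genes described here were chosen by 2 criteria from 47729 gene rows measured in mouse embryonic stem (ES) cells. Their row had to carry the biotype lincRNA, as 3707 rows did, and their level had to reach 2 FPKM (fragments per kilobase of gene model, scaled to library size) in at least 2 of the 12 libraries. Of the 245 lincRNA rows at or above that level, those among H19, Meg3, Rian, Gm26917 and Gm42418 were left out by name, and 2019 lincRNA rows were at 0 in all 12 libraries. The same level was reached by 10172 of the 22048 protein-coding rows.

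The libraries came from the E14Tg2a line of mouse ES cells (strain 129/Ola), unedited (WT) or with a homozygous deletion, named delta 0.7, of a regulatory region of the gene Tcf15. Tcf15 encodes a basic helix-loop-helix transcription factor linked to the exit of ES cells from naive pluripotency. The column names of the delta libraries carry a single clone name, so the deletion is represented by 1 clone. Each genotype was sampled at 0 h in serum-free N2B27 medium with 2i and LIF, the inhibitors and cytokine that hold ES cells in the naive state, and at 12 h and 24 h of differentiation towards epiblast-like cells (EpiLC), for which the N2B27 held Activin, bFGF and KOSR and the dishes were coated with fibronectin. There were 2 libraries in each of the 6 groups, and the labels do not say whether the 2 came from separate cultures, so the p-values below reflect the spread between these libraries alone, and it may be technical.

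ES cells transcribe many lincRNAs from the same transcription factor-bound, open chromatin that feeds their coding genes, and often from the opposite strand beside a coding gene's start. Some act where they are made on neighbouring genes, some hold nuclear bodies together, and others serve mainly as hosts from which small nucleolar RNAs (snoRNAs) or microRNAs are cut. For most there is no assigned function, and 141 of the 242 carry a predicted Gm symbol and 57 a RIKEN symbol. Another 15 are Platr genes, "pluripotency-associated transcripts" named in a screen of ES cells for noncoding RNAs whose level depends on the pluripotent state.

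The libraries held 9740812 to 17571175 reads in genes, and the lincRNAs took 0.584% to 0.686% of them, with a median of 79 reads per lincRNA and library. Tcf15 itself stood at 9.16 and 3.45 FPKM in WT at 0 h, 57.1 and 28.8 at 12 h and 99.4 and 55.4 at 24 h, against 2.16 and 1.05, 1.06 and 1.04, and 4.44 and 2.76 in delta. Of the listed naive pluripotency genes 9 of 10 fell by 24 h and 1 rose, and of the listed formative genes 6 of 6 rose (limma, adjusted p under 0.05). By the same test 2 of the 5 listed general pluripotency genes rose by 24 h and 0 fell. The 2 libraries labelled replicate 1 at 0 h stood apart, with 11.5% (WT) and 13.5% (delta) of reads in ribosomal protein genes against 5.75% to 7.52% elsewhere, and the delta one with 4.56% of reads in rRNA-like genes. In all groups replicate 1 had less mitochondrial RNA, 0.447% to 0.647% of reads against 1.8% to 2.87% in replicate 2. The 10 listed fibroblast markers summed to 22, 49.4 and 43.5 FPKM in WT replicate 1 at 0, 12 and 24 h and to 2.52 to 7.25 in the other 9 libraries, with Col1a2, Lum and Postn below 0.5 in every one. The part of these differences in the results below was not tested, except where a value without the 2 libraries is given.

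At the gene level the lincRNAs were lower than coding genes, with a median of 3.72 FPKM over the 242 (each at its median over 12 libraries) against 9.36 for the coding genes that reached the same level. Only 57 had a median of at least 10 FPKM and 13 of at least 50, while 64 had a median under 2. Exactly 2 libraries at 2 FPKM or more were found for 16. Their length had a median of 1545 bases (205 to 8306), in a median of 3 exon blocks (1 to 15). For 196 it was the spliced length in the GENCODE M21 annotation. For the others it was the shortest length that turned their FPKM into whole reads, which may be too short. The values just inside the threshold, taken as the second highest library, were 2.007 for A630072L19Rik, 2.035 for Gm14260, 2.041 for RP24-191C15.5, 2.042 for Gm26724 and 2.042 for 2210417A02Rik. Just outside stood Gm21781 at 1.994, A530017D24Rik at 1.96, 4732487G21Rik at 1.96, Gm38079 at 1.951 and 2900076A07Rik at 1.929.

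"Intergenic" was not a safe description of many of these rows. Set against the GENCODE M21 annotation of GRCm38 (mm10), 119 (49.2%) shared exon bases with a protein-coding gene. Of the 242, 115 ran antisense across coding exons without other complications, 3 overlapped a coding exon in the same direction, 4 had a near-identical copy elsewhere (at least 95% identity over at least 50% of the transcript) and 1, Gm28933, was not in that annotation. The remaining 119 had no exon shared with a coding gene and no such copy, and are called clear here. The M21 release kept the biotype lincRNA for 192 and renamed 34 antisense, 5 bidirectional promoter RNA, 5 processed transcript, 3 protein coding, 1 sense intronic and 1 pseudogene. Of the 242, 25 (14 of them clear) started within 2 kb of a coding gene's start on the opposite strand, facing away from it. The sources used here do not give whether reads were counted by strand, and without strand the reads of an antisense lincRNA and of the coding exons it crosses cannot be told apart.

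That mattered most among the highest rows. Gm26825 led with a median of 520 FPKM (395 to 1043 over the libraries), and 100% of its length matches, at 95% identity or more, the messenger RNA of Hspa8, an abundant heat shock cognate chaperone, so its level is uncertain. Gm26582 (186 FPKM) runs antisense across exons of G3bp2, and 1810014B01Rik (151 FPKM) matches 1190007I07Rik over 100% of its length by the same measure. 1810014B01Rik also shares exon bases with Hsp90b1 and was read at a median of 80.7% of the FPKM of that gene. Gm26882 (91.2, antisense to Morf4l1), Gm16755 (85.5, Mrpl12), Gm26722 (79.5, Rbbp4), Gm26765 (70.4, Tmpo) and Gm26518 (63.6, Pcbp2) all cross exons of highly expressed coding genes. Only Lncenc1 (70.1 FPKM) and Platr10 (62.4 FPKM) of the 10 highest were clear. The 10 took 36.7% to 51.4% of the lincRNAs' summed FPKM, depending on the library. The other near-identical copies were Gm28625, matched by Efr3a over 100% of its length, and Gm6712, matched by Gm5165 over 99.2%.

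Lncenc1, at chr13:97434970-97497007 on the plus strand, is an ES cell-enriched lincRNA known for its part in the glycolysis of naive cells. It stood at 62.6 and 81.5 FPKM in WT and 74.4 and 69.1 in delta at 0 h, 71 and 72.5 against 75.2 and 64.5 at 12 h, and 54.9 and 80.3 against 57 and 64.9 at 24 h. The genotypes overlapped at each time and the 3 times overlapped each other, and the change from 0 h to 24 h was -0.17 ± 0.16 (SE) on the log2(FPKM + 1) scale used for every change below, with an adjusted p of 0.45 (limma, Benjamini-Hochberg over 13981 genes). The added 1 shrinks changes of rows at low FPKM, so their sizes are not like for like with those of highly expressed genes.

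Over the course of differentiation, with both genotypes in each mean (4 libraries per time), 50 of the 242 lincRNAs rose and 35 fell from 0 h to 24 h. That is 20.7% and 14.5% of them, where 13.7% of all 13981 tested genes rose and 14.4% fell. The median change was 0.06 over the lincRNAs and -0.04 over all genes. Scaling each library to the median of well-expressed genes moved the median of all genes to 0.09 and turned the split into 60 rises and 23 falls (72.3% rises, against 58.8% as deposited). By 12 h, 32 had risen and 21 had fallen, 13.2% and 8.68%, against 8.71% and 8.57% of all genes. In these bulk libraries fewer cells of a type and less RNA per cell cannot be told apart.

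The threshold of the choice bears on those counts, because a lincRNA that reached 2 FPKM at 1 time only had to be higher there. At the level in at least 2 of the 4 libraries at every time were 152 lincRNAs, of which 25 rose and 21 fell by 24 h. That is 30.3% called in either direction, near the 28.1% of all genes tested. Of the 90 that were not, 25 rose and 14 fell, or 43.3%. Among those 90, 14 reached the level at 0 h only, 9 at 12 h only, 15 at 24 h only, 30 at 12 h and 24 h, 10 at 0 h and 12 h, 3 at 0 h and 24 h, and 9 in 2 libraries of no single time. Of the 119 clear lincRNAs 32 rose (26.9%) and 15 fell (12.6%) by 24 h, with a median change of 0.19. Of the 115 that cross coding exons antisense 18 rose (15.7%) and 19 fell (16.5%), with a median of -0.02. Of all genes tested 13.7% rose and 14.4% fell. Whether the classes differ was not tested.

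**Figure D1:**
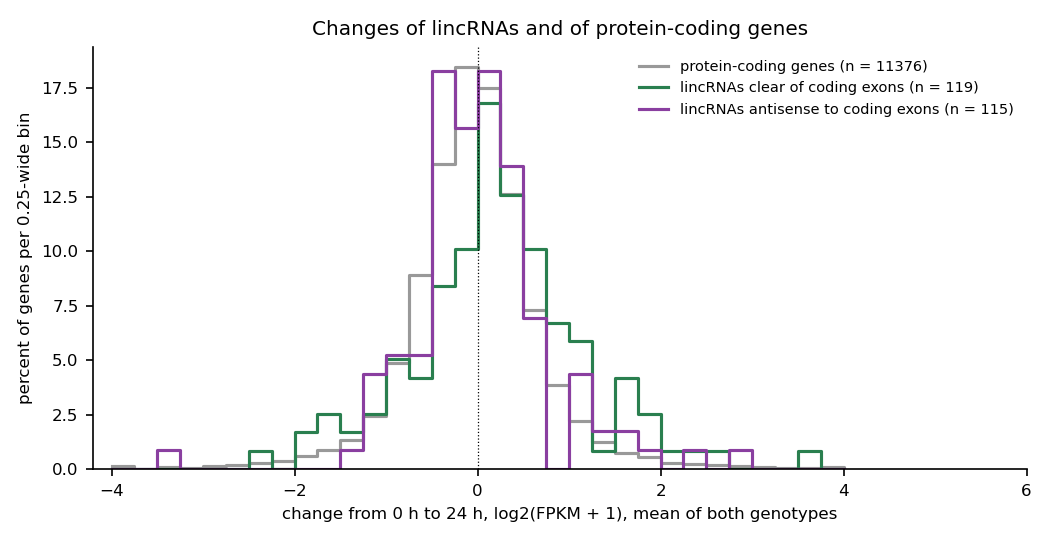
Distribution of the change from 0 h to 24 h (x axis, log2(FPKM + 1), mean of both genotypes) for protein-coding genes, for the 119 clear lincRNAs and for the 115 lincRNAs that cross coding exons antisense (y axis, percent of genes per bin), with changes beyond the ends of the bins counted in the end bins. The clear lincRNAs lie slightly to the right (median 0.19), the antisense ones around the coding genes (median -0.02).

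The largest rise was that of Halr1, a clear lincRNA at chr6:52102949-52113684 on the plus strand, known as a nuclear lincRNA of ES cells. It was read at 0 and 0.391 FPKM in WT and 0 and 0 in delta at 0 h, then at 10.7 and 7.15 in WT and 9.4 and 8.13 in delta at 12 h, and at 13.2 and 10.8 in WT and 10.3 and 14.5 in delta at 24 h. All 4 libraries at 0 h lay far below all 8 later ones, and the genotypes overlapped at 12 h and 24 h. The change was 3.17 ± 0.18 by 12 h (adjusted p = 2.2e-05) and 3.59 ± 0.18 by 24 h (adjusted p = 4.2e-06).

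Gm42808 was a comparable switch at a lower level. It had 0 reads in all 4 libraries at 0 h, 3.43 and 5.27 FPKM in WT and 2.81 and 3.31 in delta at 12 h, and 2.19 and 3.09 in WT and 4.1 and 3.53 in delta at 24 h. Against a floor of 3 reads over the 4 libraries it was at least 17.5-fold higher at 12 h and at least 15.3-fold higher at 24 h. Gm43293, 138 kb from Podxl, also had 0 reads at 0 h but came later, with 0.149, 0.26, 0 and 0.754 FPKM at 12 h and 1.62, 2.98, 2.02 and 2.21 at 24 h (WT replicates first), at least 14.1-fold above its floor.

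Platr5 (chr1:88754890-88755736, plus strand) rose in both steps. Its FPKM was 0.69 and 0.537 in WT and 1.36 and 1.09 in delta at 0 h, 4.52 and 2.1 in WT and 4.91 and 5.71 in delta at 12 h, and 8.05 and 7.25 in WT and 8.97 and 17.4 in delta at 24 h. The times did not overlap, and at each time both delta libraries were above both WT libraries. The change was 1.43 ± 0.23 by 12 h (adjusted p = 0.0037) and 2.51 ± 0.23 by 24 h (adjusted p = 8.6e-05). The step from 12 h to 24 h, 1.08 ± 0.23 (adjusted p = 0.033), kept its call in 10 of 18 alternative analyses. Its nearest coding gene, Arl4c, which encodes a small GTPase, is 52.7 kb away and rose by 3.01 ± 0.14 (adjusted p = 4.2e-06).

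Platr7 (chr10:84547417-84553338, minus strand) rose early and then held. It stood at 4.74 and 4.09 FPKM in WT and 7.86 and 3.54 in delta at 0 h, 12.1 and 14.9 against 20.6 and 16.9 at 12 h, and 16.9 and 22 against 17.8 and 19.1 at 24 h. Every later library exceeded every library at 0 h, and 12 h and 24 h overlapped. The change was 1.53 ± 0.21 by 12 h (adjusted p = 0.0016) and 1.76 ± 0.21 by 24 h (adjusted p = 3.6e-04). Ckap4, the coding gene 13.4 kb away, changed by -0.04 ± 0.15 (adjusted p = 0.88) and was not called.

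Gm12688 starts 1.32 kb from Foxd3, on the opposite strand and facing away from it. Foxd3 encodes a forkhead factor of pluripotent cells and the neural crest. Gm12688 was at 1.55 and 4.38 FPKM in WT and 3.18 and 2.6 in delta at 0 h, 7.63 and 9.72 against 8.35 and 11.1 at 12 h, and 10.9 and 11.3 against 15.4 and 14.7 at 24 h. No library at 0 h reached the lowest at 12 h. By 24 h Gm12688 had risen by 1.88 ± 0.22 (adjusted p = 3.5e-04) and Foxd3 by 2.10 ± 0.19 (adjusted p = 7.4e-05).

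A cluster of 3 clear lincRNAs on chromosome 1 surrounds Zfp281, a zinc finger factor of ES cells that takes part in the same transition. Platr23 starts 0.251 kb from the start of Zfp281, Gm19705 lies 40.7 kb away and Platr22 66.2 kb away. Gm19705 was highest, its mean going from 2.0 ± 0.694 FPKM at 0 h to 8.64 ± 2.15 at 12 h and 14.4 ± 3.34 at 24 h (SD, n = 4 per time), a change of 2.36 ± 0.23 by 24 h (adjusted p = 1.0e-04). Platr22 had 0.488 and 0.475 FPKM in WT and 0.758 and 0.739 in delta at 0 h, and its 8 later libraries lay between 2.18 and 2.78. Platr23 had 0.89 to 1.23 FPKM at 0 h and 2.05 to 3.35 later, so neither overlapped between 0 h and the later times. By 24 h Platr22 rose by 1.15 ± 0.12 (adjusted p = 1.7e-04), Platr23 by 0.67 ± 0.14 (adjusted p = 0.0077) and Zfp281 by 1.26 ± 0.16 (adjusted p = 5.2e-04).

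**Figure D2:**
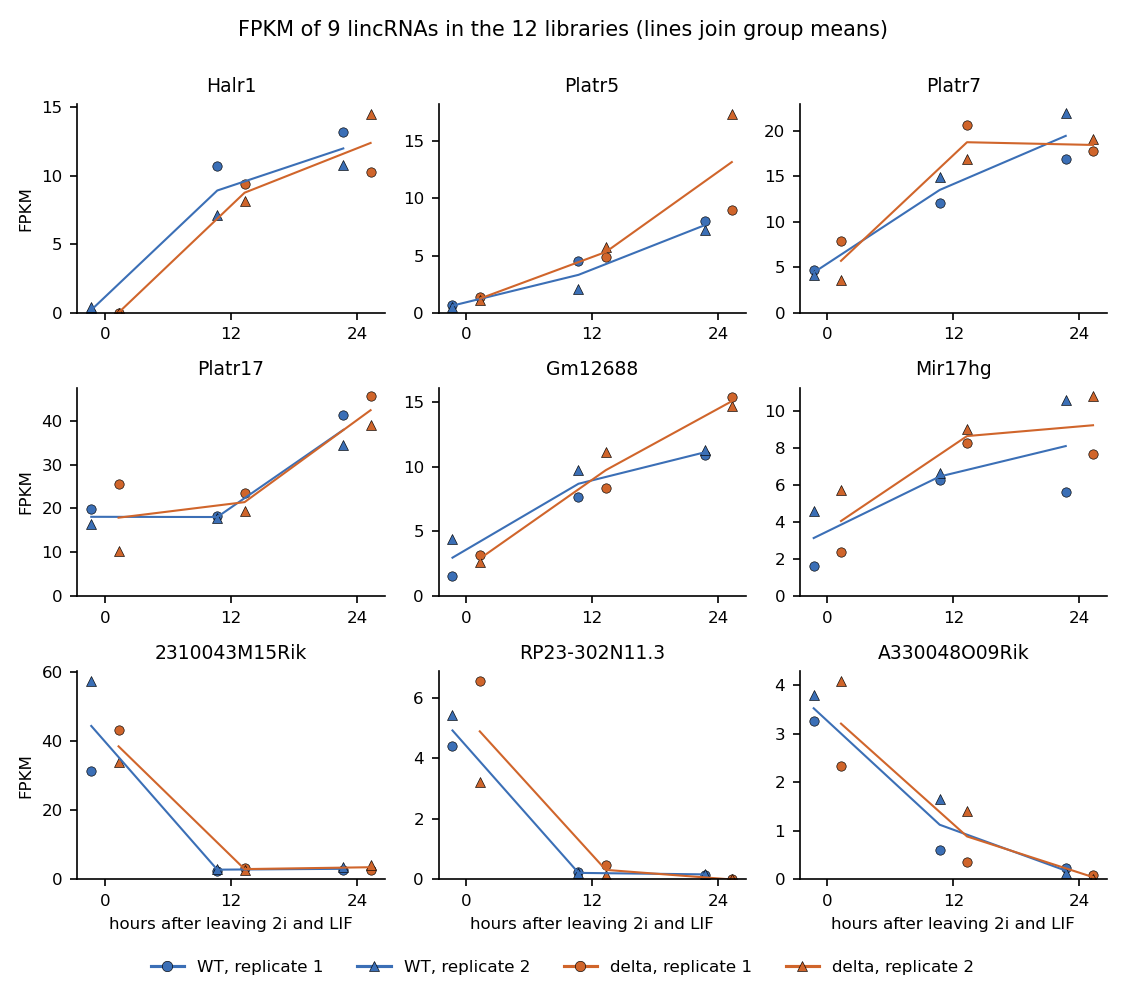
FPKM (y axis, from 0) of 9 lincRNAs against hours after leaving 2i and LIF (x axis) in the 12 libraries, with WT in blue, delta in orange, circles for replicate 1, triangles for replicate 2 and lines joining group means. Halr1 goes from 0 to 0.391 at 0 h to 7.15 to 14.5 later, and 2310043M15Rik from 31.3 to 57.5 at 0 h to 2.52 to 4.33 later.

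On the log2(FPKM + 1) scale 2310043M15Rik was the lincRNA that fell most. That rank depends on the scale, because the added 1 shrinks falls of rows at low FPKM. Among the 18 alternative analyses the largest fall by 24 h was -5.13 for RP23-302N11.3 and -4.53 for A330048O09Rik, both described below. For 2310043M15Rik it was -3.63. 2310043M15Rik lies at chr16:93792136-93794901 on the minus strand and crosses exons of Dopey2 antisense. It had 31.3 and 57.5 FPKM in WT and 43.1 and 33.9 in delta at 0 h, then 2.52 and 3.16 against 3.25 and 2.76 at 12 h, and 2.66 and 3.52 against 2.76 and 4.33 at 24 h. The 4 libraries at 0 h were all above 30 and the 8 others all below 5, and the genotypes overlapped at each time. The change was -3.40 ± 0.21 by 12 h (adjusted p = 3.0e-05) and -3.27 ± 0.21 by 24 h (adjusted p = 1.3e-05), while Dopey2 changed by -0.61 ± 0.17 by 12 h (adjusted p = 0.039) and by -0.23 ± 0.17 by 24 h (adjusted p = 0.34).

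RP23-302N11.3 (chr7:125416994-125418114, minus strand), 26.6 kb from Kdm8, all but disappeared. It stood at 4.4 and 5.44 FPKM in WT and 6.55 and 3.23 in delta at 0 h, 0.233 and 0.203 against 0.487 and 0.147 at 12 h, and 0.158 and 0.179 against 0 and 0 at 24 h. Every library at 0 h was above every later one, and the change was -2.42 ± 0.19 by 24 h (adjusted p = 3.7e-05), with Kdm8 at 0.11 ± 0.13 (adjusted p = 0.53).

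A330048O09Rik (chr13:48272413-48273884, minus strand) lies 6.39 kb from Id4, which encodes an inhibitor of basic helix-loop-helix factors. It fell stepwise, from 3.25 and 3.79 FPKM in WT and 2.33 and 4.08 in delta at 0 h to 0.601, 1.65, 0.36 and 1.41 at 12 h and 0.233, 0.132, 0.0971 and 0 at 24 h. The 3 times did not overlap. The change was -1.16 ± 0.24 by 12 h (adjusted p = 0.011) and -1.95 ± 0.24 by 24 h (adjusted p = 4.2e-04), beside -2.99 ± 0.15 for Id4 (adjusted p = 4.2e-06).

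Gm20610 and Gm20625, neighbours on the minus strand of chromosome 10 (starts of the intervals at 61046422 and 61038229), fell together. The mean FPKM of Gm20610 (± SD, n = 4 per time) went from 6.53 ± 0.93 to 1.86 ± 0.557 and 1.46 ± 0.387 at 0, 12 and 24 h, and that of Gm20625 from 3.71 ± 1.69 to 0.724 ± 0.0753 and 0.715 ± 0.15. By 24 h they fell by 1.62 ± 0.17 (adjusted p = 1.7e-04) and 1.40 ± 0.18 (adjusted p = 5.2e-04), and Pcbd1, the nearest coding gene 37.4 kb and 46.5 kb away, changed by 0.07 ± 0.28 (adjusted p = 0.88). Gm29630, 15.5 kb from Lemd1, fell from 4.31 ± 0.844 to 0.737 ± 0.177 FPKM, a change of -1.61 ± 0.19 (adjusted p = 3.9e-04). Bvht, known as Braveheart for its part in committing mesoderm to the heart lineage, was already present in these ES cells, at 23.7 and 10.1 FPKM in WT and 34.9 and 14.3 in delta at 0 h, and was at 2.78 to 5.29 in the 8 later libraries. In both genotypes the higher value at 0 h was replicate 1, the library with the high ribosomal protein share. Its change was -1.83 ± 0.32 by 12 h (adjusted p = 0.0054) and -1.99 ± 0.32 by 24 h (adjusted p = 0.002).

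The promoters of 6 of the lincRNAs described above are shown, chosen after their values were seen from those whose RefSeq start lies near the GENCODE one, to let the starts of genes that rose and fell be compared. They are the RefSeq promoters on GRCm38.p6, each with 250 bases before and 50 from the start, 5′ to 3′ on the gene's strand. Capitals mark the motifs searched on both strands, other than the general E-box. The first is CAGGTG, an E-box of basic helix-loop-helix factors, the family of Tcf15, which appears as CACCTG where it lies on the other strand. The others are the Tcf/Lef motif CTTTGAT, then the Esrrb motif TCAAGGTCA, the Stat motif TTCNNNGAA, the octamer of POU factors ATTTGCAT and the GC box GGGCGG. The 4 that rose are Halr1 (chr6:52102699-52102998, plus strand), Platr5 (chr1:88754640-88754939, plus), Platr7 (chr10:84553289-84553588, minus) and Platr22 (chr1:136695961-136696260, plus), and the 2 that fell are A330048O09Rik (chr13:48273835-48274134, minus) and 2310043M15Rik (chr16:93794852-93795151, minus).
Halr1: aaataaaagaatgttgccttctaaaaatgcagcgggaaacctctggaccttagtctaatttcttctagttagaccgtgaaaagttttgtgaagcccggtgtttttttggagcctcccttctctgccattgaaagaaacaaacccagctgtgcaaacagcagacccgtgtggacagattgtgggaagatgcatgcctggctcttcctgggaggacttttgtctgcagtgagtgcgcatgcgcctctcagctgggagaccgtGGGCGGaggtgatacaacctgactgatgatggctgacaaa
Platr5: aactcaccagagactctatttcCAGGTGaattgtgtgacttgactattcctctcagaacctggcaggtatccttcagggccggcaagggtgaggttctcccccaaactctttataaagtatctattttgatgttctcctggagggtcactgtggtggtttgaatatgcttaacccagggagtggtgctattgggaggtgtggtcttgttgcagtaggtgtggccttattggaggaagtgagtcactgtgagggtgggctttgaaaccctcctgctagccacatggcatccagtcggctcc
Platr7: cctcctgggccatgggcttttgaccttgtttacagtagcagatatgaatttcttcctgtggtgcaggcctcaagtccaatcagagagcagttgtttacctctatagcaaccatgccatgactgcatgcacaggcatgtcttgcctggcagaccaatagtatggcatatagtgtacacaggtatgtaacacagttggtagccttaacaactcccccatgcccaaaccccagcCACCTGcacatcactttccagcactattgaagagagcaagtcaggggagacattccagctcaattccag
Platr22: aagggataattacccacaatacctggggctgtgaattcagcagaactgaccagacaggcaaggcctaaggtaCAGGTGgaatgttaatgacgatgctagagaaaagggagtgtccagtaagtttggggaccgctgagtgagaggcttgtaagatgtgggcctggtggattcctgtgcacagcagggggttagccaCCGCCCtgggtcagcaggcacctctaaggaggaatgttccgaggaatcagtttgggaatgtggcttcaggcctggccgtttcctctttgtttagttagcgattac
A330048O09Rik: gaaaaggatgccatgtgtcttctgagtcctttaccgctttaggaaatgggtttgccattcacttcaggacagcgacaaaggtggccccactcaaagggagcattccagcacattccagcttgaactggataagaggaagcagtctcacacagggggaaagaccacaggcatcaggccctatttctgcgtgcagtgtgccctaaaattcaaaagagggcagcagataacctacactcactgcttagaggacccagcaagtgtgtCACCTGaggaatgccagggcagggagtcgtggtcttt
2310043M15Rik: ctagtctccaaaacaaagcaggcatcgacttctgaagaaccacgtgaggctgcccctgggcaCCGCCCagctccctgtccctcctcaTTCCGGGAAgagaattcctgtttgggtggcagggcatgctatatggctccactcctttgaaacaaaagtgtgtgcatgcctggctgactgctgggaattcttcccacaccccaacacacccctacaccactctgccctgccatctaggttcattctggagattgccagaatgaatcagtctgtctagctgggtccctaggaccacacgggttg

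In these 6 windows the E-box CAGGTG or its complement lay 228 bases before the start in Platr5, 178 before in Platr22, 19 before in Platr7 and at base 14 after the start in A330048O09Rik. Platr22 and 2310043M15Rik held a GC box 55 and 188 bases before the start, Halr1 one at base 11 after it, and 2310043M15Rik a TTCNNNGAA 163 bases before it. Of the 242 lincRNAs 99 matched a RefSeq promoter by symbol, chromosome and strand, and 66 of those started within 100 bases of their start in GENCODE M21. Among the 66, CAGGTG was in 17 (25.8%), against 20.2% of all 32851 promoters of this length, and it was in 6 of the 15 that rose by 24 h, 2 of the 9 that fell and 9 of the 42 called neither way. The general E-box CANNTG, which includes CAGGTG, was in 77.3% of the 66 and 72.3% of all promoters. ATTTGCAT was in 3 of the 66 (4.55%, against 1.74%), namely 2700038G22Rik, 4833407H14Rik and Gm26679, which all rose by 24 h, by 0.69, 0.97 and 1.03. TTCNNNGAA was in 7.58% (against 8.3%), CTTTGAT in 4.55% (3.73%), TCAAGGTCA in 1.52% (0.423%) and GGGCGG in 43.9% (35.7%). These matches describe letters in a window, no test was made of them, and their GC content differed, 56% in the 66 and 53.8% in all.

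Among the 110 antisense lincRNAs whose coding partner was tested, the lincRNA and the partner moved closely together. Over the 12 libraries, which share their times and depths, the median Pearson correlation within a pair was 0.90 (quartiles 0.73 and 0.97), and 98 pairs (89.1%) were above 0.5. For the 97 clear lincRNAs with a tested nearest coding gene the median was 0.23 (quartiles -0.15 and 0.61) and 36 (37.1%) were above 0.5. The differences between the 2 replicates of a group, which time does not enter, had a median correlation of 0.85 in the antisense pairs and 0.11 in the clear ones. The antisense lincRNAs were read at a median of 45.5% of their partner's FPKM.

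Several pairs, named for the size of the lincRNA change, had values close to each other. Gm26735 crosses exons of Sox4, a transcription factor of early lineages, and stood at 1.64 and 1.88 FPKM in WT and 1.56 and 1.57 in delta at 0 h, 8.09 and 6.62 against 10.7 and 7.5 at 12 h, and 17.8 and 15.3 against 19 and 19.2 at 24 h. It rose at each step without overlap between times, by 2.82 ± 0.14 in all (adjusted p = 4.2e-06), beside 3.01 ± 0.16 for Sox4 (adjusted p = 4.4e-06), and its FPKM was 97.4% of that of Sox4. Gm28592 and Phlda1 changed by 2.39 and 2.29, Gm29233 and Thbs1 by 1.95 and 1.84, and Gm26752 and Ppp1r14c by 1.65 and 1.94. Among the falls M5C1000I18Rik and C2cd4b changed by -1.28 and -1.41, Gm44036 and Anxa4 by -1.16 and -1.28, and Gm26792 and Cuedc2 by -1.08 and -1.23. Such rows cannot be told apart from reads of the coding exons.

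A few antisense rows had values far from those of their partner, although the difference within a pair was not tested. 2310043M15Rik, described above, fell by 3.27 where Dopey2 was not called. Gm4419 rose by 1.46 ± 0.16 by 24 h (adjusted p = 2.0e-04), with 0.35 for Ywhaq. Gm19710 and Hax1 had opposite signs, 0.41 and -0.78, and a correlation over the 12 libraries of -0.93, and 6230400D17Rik and Chchd1 had one of -0.91.

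**Figure D3:**
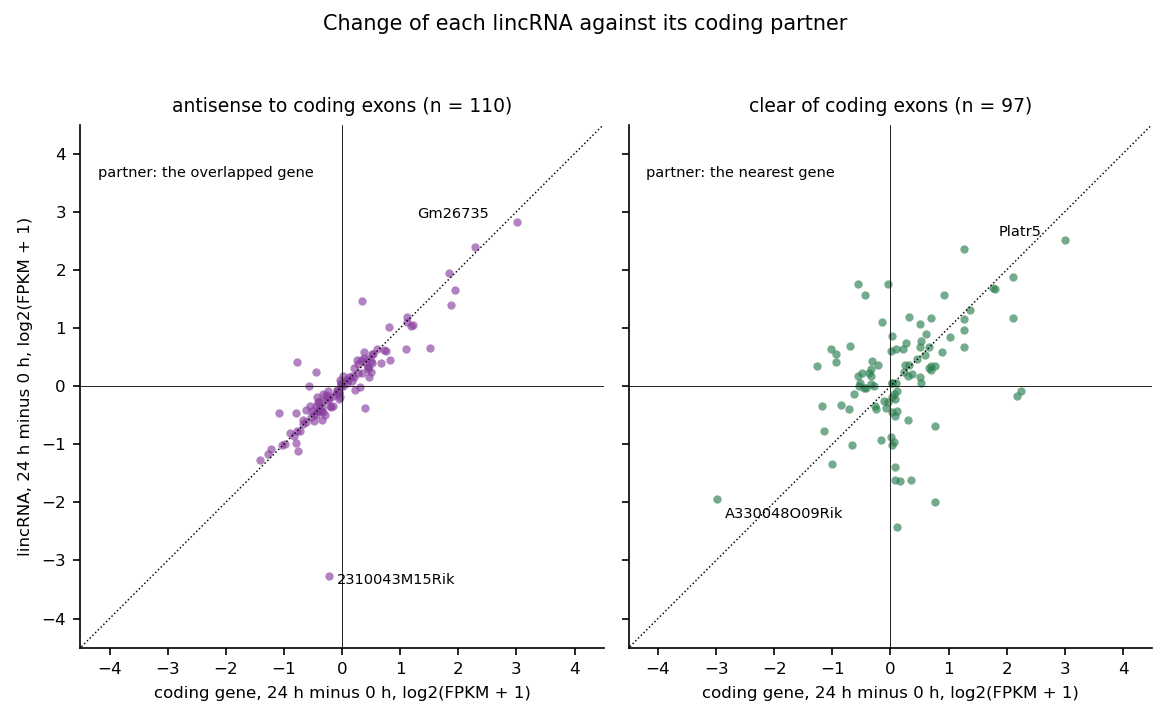
Change from 0 h to 24 h of each lincRNA (y axis) against that of its coding partner (x axis, both in log2(FPKM + 1)), for 110 lincRNAs that cross the partner's exons antisense and for 97 clear lincRNAs with their nearest coding gene, with the dotted line at equal change. Antisense pairs lie along the line (correlation across pairs 0.86), clear pairs spread around it (0.45).

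The list of pluripotency-associated lincRNAs held 16 of the 242 (15 Platr genes and Lncenc1, from 44 symbols of which 23 were tested). No fall among these 16 passed the test in the main fit. By 12 h, 4 of the 16 rose and none fell, where 8.71% of all genes rose and 8.57% fell. Without the 2 replicate 1 libraries at 0 h, 7 rose by 12 h, with a median of 0.50 instead of 0.11. By 24 h, 7 rose (Platr5, Platr7, Platr17, Platr22, Platr4, Platr23 and Platr25) and none fell at an adjusted p under 0.05, with a median change of 0.43 where all genes had -0.04, and where 13.7% of all genes rose and 14.4% fell. Without the same 2 libraries, 9 rose by 24 h and 1, Platr15, fell by 1.09 (adjusted p = 0.038), and with the replicate number as a block 7 rose and 2, Platr11 and Platr28, fell by 0.97 and 0.51. Among the rises, Platr5, Platr22 and Platr23 were below 2 FPKM in every library at 0 h. They are among the 16 only through their later levels, which favours rises in this count. Over all 23 tested genes of the list 8 rose and 2 fell by 24 h.

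Platr17, 2.74 kb from Daxx, was highest at 24 h. It had 19.8 and 16.4 FPKM in WT and 25.6 and 10.2 in delta at 0 h, 18.2 and 17.9 against 23.5 and 19.4 at 12 h, and 41.3 and 34.6 against 45.8 and 39.1 at 24 h. The libraries at 24 h all lay above all others, while 0 h and 12 h overlapped, and the change by 24 h was 1.18 ± 0.24 (adjusted p = 0.0068). The step from 12 h to 24 h, 0.99 ± 0.24, did not pass (adjusted p = 0.058). Without the 2 replicate 1 libraries at 0 h that step passed (adjusted p = 0.002), and so did a rise of 0.57 by 12 h (adjusted p = 0.015). Platr10, the highest of the family, had 61.6 and 38 FPKM in WT and 92 and 43.2 in delta at 0 h and 71.2 to 89.3 at 24 h. Its 2 replicate 1 libraries at 0 h were the higher ones, the change was 0.50 ± 0.24 (adjusted p = 0.15), and without those 2 libraries it was 0.94 (adjusted p = 1.8e-04). Platr4 rose from 3.79 ± 2.13 to 7.27 ± 1.17 FPKM (SD, n = 4 each), by 0.87 ± 0.25 (adjusted p = 0.032), and Platr25 from 1.49 ± 0.635 to 2.77 ± 0.334, by 0.63 ± 0.17 (adjusted p = 0.022). Platr11 was read at 13.5 and 3.17 FPKM in WT and 24.1 and 12.2 in delta at 0 h and at 4.19 to 6.04 at 24 h, a change of -0.97 ± 0.37 that did not pass (adjusted p = 0.08).

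**Figure D4:**
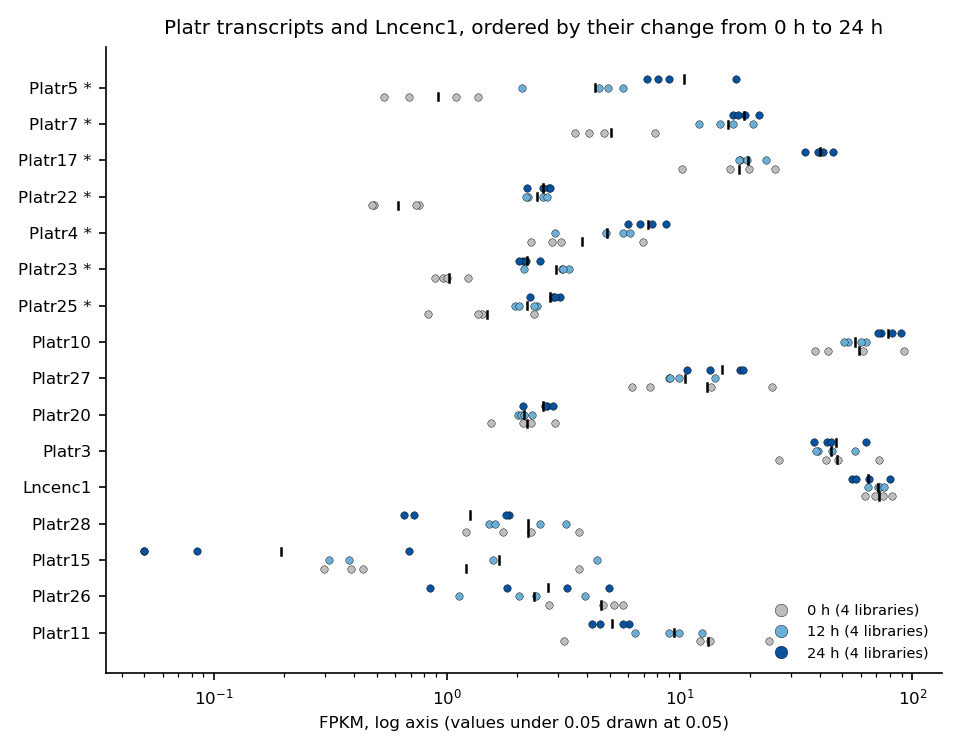
FPKM (log axis) of the 15 Platr genes and Lncenc1 in the 12 libraries, ordered by their change from 0 h to 24 h, with 4 libraries at each of 0, 12 and 24 h told apart by colour. Platr5 and Platr7 separate 0 h from later times, while Lncenc1 stays between 54.9 and 81.5.

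The list of snoRNA hosts, genes whose introns are cut into guides of RNA modification, held 6 of the 242 (Dancr, Epb41l4aos, Mir17hg, Snhg12, Snhg20 and Snhg6). GENCODE M21 places a snoRNA inside 5 of them and none inside Mir17hg, a microRNA host. By 24 h 1 rose (Mir17hg) and 1 fell (Snhg6), and over all 17 tested genes of the list 2 rose and 4 fell, where 13.7% of all genes rose and 14.4% fell. Snhg6, the host of Snord87, had 27.5 and 34.3 FPKM in WT and 38.9 and 45.1 in delta at 0 h, 16.5 and 19 against 21.1 and 19.5 at 12 h, and 15.1 and 19.3 against 19.7 and 15.4 at 24 h. All 4 libraries at 0 h exceeded all later ones, and it changed by -0.89 ± 0.15 by 12 h (adjusted p = 0.0038) and -1.02 ± 0.15 by 24 h (adjusted p = 1.0e-03). Its exons cross those of Mcmdc2 antisense. Snhg12, host of Snora16a, Snora44, Snora61 and Snord99, had 7.95 and 34 FPKM in WT and 8.09 and 28.2 in delta at 0 h, and 12.8 to 19.8 afterwards. Its low values at 0 h were both replicate 1. Its change by 24 h was -0.03 ± 0.45 (adjusted p = 0.97), and without those 2 libraries it was -0.94 (adjusted p = 0.0027). Dancr, at chr5:74093060-74095406, stood at 0.294 and 0.903 FPKM in the same 2 libraries and at 1.4 to 2.77 in the other 10.

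Mir17hg (chr14:115042879-115046727, plus strand) is the host of the miR-17-92 cluster, microRNAs of cell cycle and survival control. Its 6 hairpins give 11 mature microRNAs with 9 different seeds (bases 2 to 8, which pair with targets). The 6 printed here, from RefSeq on GRCm38.p6 with the seed in capitals, are the arms by which the cluster is usually known and show which of them share a seed, miR-17-5p with miR-20a-5p and miR-19a-3p with miR-19b-3p.
miR-17-5p: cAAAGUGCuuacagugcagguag
miR-20a-5p: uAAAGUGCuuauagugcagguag
miR-18a-5p: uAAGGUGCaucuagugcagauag
miR-19a-3p: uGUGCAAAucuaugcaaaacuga
miR-19b-3p: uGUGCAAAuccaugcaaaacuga
miR-92a-3p: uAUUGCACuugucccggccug

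The libraries measure the polyadenylated host, not these microRNAs. Mir17hg stood at 1.65 and 4.62 FPKM in WT and 2.36 and 5.75 in delta at 0 h, 6.26 and 6.66 against 8.26 and 9.03 at 12 h, and 5.61 and 10.6 against 7.66 and 10.8 at 24 h. Replicate 2 was above replicate 1 in all 6 groups, and 0 h and 24 h overlapped slightly, at 5.75 against 5.61. It rose by 1.13 ± 0.31 by 24 h (adjusted p = 0.024), and without the 2 replicate 1 libraries at 0 h it was no longer called. The other listed microRNA hosts were Mirg, the host of 14 hairpins in the imprinted Dlk1-Dio3 region, at 0.988 to 2.65 FPKM with a change of 0.19 ± 0.20 (adjusted p = 0.5), and Lncenc1, inside which M21 places no microRNA. Snhg20 was not on that list but holds Mir6516, and it changed by 0.18 ± 0.33 (adjusted p = 0.71).

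Malat1, the abundant RNA of nuclear speckles, was the only member of the listed nuclear and chromatin-bound RNAs among the 242, and 0 of the 5 tested genes of that list were called at 24 h (limma). Its libraries were ordered by replicate number. In replicate 1 it stood at 3.43, 11.3 and 5.7 FPKM in WT and 3.86, 10.1 and 6.34 in delta at 0, 12 and 24 h, and in replicate 2 at 25.6, 24.8 and 19.7 in WT and 42.9, 30.9 and 28.1 in delta. Every replicate 2 library was above every replicate 1 library, with a median difference of 1.81. Its change by 24 h was 0.06 ± 0.86 (adjusted p = 0.97), and -1.38 without the 2 replicate 1 libraries at 0 h, where it was not called either.

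In all, 32 of the 242 lincRNAs (13.2%) were higher in replicate 2 in all 6 groups and 25 (10.3%) were lower, against 9.51% and 11.8% of all genes tested. Snhg20 (0.79), Platr28 (0.74) and Mir17hg (0.63) were among those higher in replicate 2, by these medians, and Gm10522 (-0.87) and Gm17768 (-0.80) among those lower. What the replicate number stands for is not given in the labels. Genes of RNA processing were listed as well. Of 16 tested genes of the RNA exosome and its adaptors none rose and 1 fell by 24 h, of 10 of nonsense-mediated decay 1 rose, and of 9 paraspeckle proteins 2 rose, against 13.7% rises and 14.4% falls among all genes. Of the RNAs of the X inactivation centre 1 was tested and rose by 0.86, and none was among the 242.

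**Figure D5:**
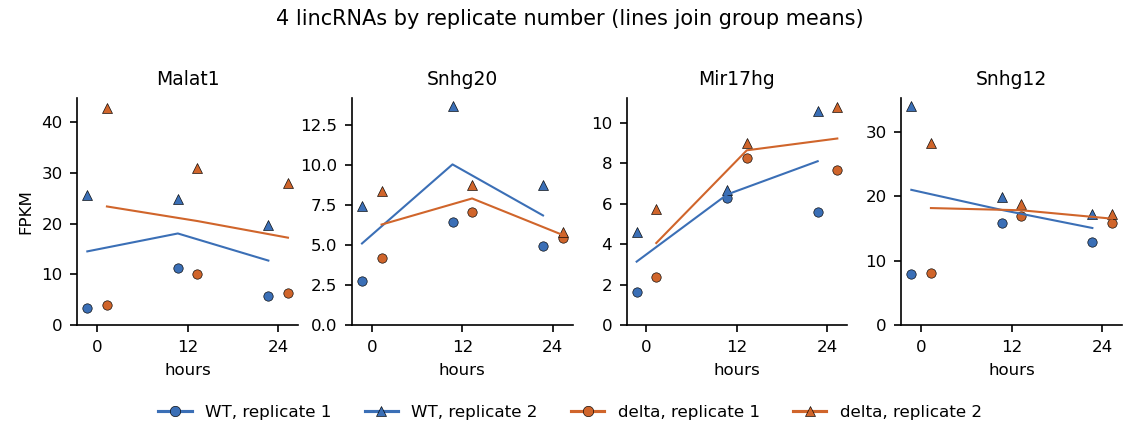
FPKM (y axis) of 4 lincRNAs against time (x axis, hours), with WT in blue, delta in orange, circles for replicate 1 and triangles for replicate 2. For Malat1 all triangles (19.7 to 42.9) lie above all circles (3.43 to 11.3).

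Few lincRNAs changed between 12 h and 24 h. There were 5 rises (2.07%) and 6 falls (2.48%), where 2.2% of all genes rose and 2.08% fell. With median-scaled libraries the split was 7 rises and 3 falls (70% rises against 45.5%), and with the replicate number as a block, which pairs the libraries, 18 were called instead of 11. From 0 h to 12 h the same block gave 80 calls instead of 53. The clear ones among the rises were Platr5 and Gm43293 (1.33 ± 0.20, adjusted p = 0.0078). The others, Gm26752 (1.15), Gm26735 (1.04) and Gm4419 (0.75), cross coding exons.

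The falls after 12 h included transient rises. 4930444M15Rik, a clear lincRNA, stood at 1.07 and 2.08 FPKM in WT and 1.21 and 1.27 in delta at 0 h, 4.33 and 6.04 against 5.47 and 6.34 at 12 h, and 2.35 and 2.77 against 1.06 and 2.29 at 24 h. The libraries at 12 h lay above all others and those at 0 h and 24 h overlapped. It rose by 1.45 ± 0.20 (adjusted p = 0.0015) and then fell by 1.10 ± 0.20 (adjusted p = 0.017), a fall that kept its call in 13 of 18 alternatives. 4930434O05Rik, 20.9 kb from C2cd5, did the same, rising by 0.70 ± 0.17 (adjusted p = 0.024) and falling by 1.13 ± 0.17 (adjusted p = 0.0077). 2500002B13Rik (-0.93), 4930461G14Rik (-0.84), Gm26669 (-0.94) and Gm26883 (-0.61) also fell, in 12, 6, 9 and 4 of the 18 alternatives respectively. The last pair cross exons of Zfp36l1 (-0.96) and Tshz2 (-0.40).

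No lincRNA was called between delta and WT. At 0 h, 12 h, 24 h and averaged over the times 0 of the 242 were called (limma, Benjamini-Hochberg). Of all genes 0.00715%, 0.0143%, 0.00715% and 0.0143% were, namely Mest in each and Tcf15 at 12 h and averaged. At 24 h Tcf15 itself differed by -4.06 ± 0.47 and was not called (limma adjusted p = 0.083), so a large difference at a single time could be missed. At an unadjusted p under 0.05 stood 6 lincRNAs (2.48%) at 0 h, 2 (0.826%) at 12 h, 2 (0.826%) at 24 h and 11 (4.55%) averaged, near the 2.02%, 0.887%, 1.53% and 4.33% of all genes. The difference between genotypes in the change to 12 h and to 24 h called 0 lincRNAs and 0 of all genes (0% each), with 1 and 2 lincRNAs (0.413% and 0.826%) at an unadjusted p under 0.05, against 0.615% and 0.987% of all genes.

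How precisely the genotype differences were measured follows from the spread. The intervals below are not adjusted for the number of genes, so differences larger than their half-width could also go uncalled. The SE of the averaged genotype difference had a median of 0.18 (quartiles 0.13 and 0.23) over the lincRNAs, a 95% interval of about 0.41 to either side, and 195 of the 242 had a difference under 0.25 in size. The differences ran from -1.03 to 0.57, and from -0.90 to 0.57 without the lincRNAs that have a near-identical copy elsewhere. With the replicate number as a block the median SE was 0.15 and the interval about 0.34 to either side. For Halr1 the interval was -0.41 to 0.27 (-0.41 to 0.28 with the block), and for Malat1, whose level differed by replicate number, -1.31 to 1.85 (-0.31 to 0.86 with the block).

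In 4 lincRNAs the delta and WT libraries did not overlap at any of the 3 times, 3 higher in delta (1.24%) and 1 lower (0.413%). Of all genes tested 0.958% were higher and 0.987% lower by the same measure, so the count is no result about the lincRNAs. Platr5 was higher in delta, by 0.57 ± 0.19 (95% interval 0.14 to 1.00, limma adjusted p = 1). Gm17300 crosses exons of Rcc1 antisense. It was at 29.3 and 53.2 FPKM in WT and 63.9 and 61.1 in delta at 0 h, 32.2 and 35 against 41.4 and 35.2 at 12 h, and 32.7 and 36.9 against 42.2 and 40.5 at 24 h, a difference of 0.36 ± 0.15 (0.02 to 0.70). 1700020I14Rik differed by 0.18 ± 0.09 (-0.02 to 0.38). Gm1070, which lies within Smyd1 without sharing its exons, was lower in delta, at 1.92 and 3.39 FPKM in WT and 1.09 and 1.29 in delta at 0 h, 2.94 and 4.5 against 2.4 and 2.75 at 12 h, and 1.93 and 2.61 against 0.813 and 1.51 at 24 h. Its difference was -0.57 ± 0.16 (-0.93 to -0.21, limma adjusted p = 1). Platr26 overlapped at 0 h, where it had 5.7 and 4.67 FPKM in WT and 5.22 and 2.75 in delta, and was lower at 12 h (2.42 and 3.91 against 1.13 and 2.04) and at 24 h (3.29 and 4.95 against 1.82 and 0.845), with an averaged difference of -0.73 ± 0.20 (-1.18 to -0.28). None of these passed the adjustment over all genes.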

How the data were processed

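The values are FPKM per gene, deposited by the authors in 1 table of 12 libraries (oligo-dT selected mRNA from 1 µg total RNA, per the labels' protocols). Cutadapt, STAR 2.5.2b, featureCounts 1.5.1, edgeR 3.16.5 and the build mm10 are named, per the submitters' processing notes. The annotation release and strand setting are not given in the sources used here. Whole reads were recovered, to within 0.01 read, for 98.3% of 28657 genes and for all 242 lincRNAs. For the lincRNAs without a matching M21 length the shortest length that gave whole reads was used, so their read counts may be too low.

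Changes were fitted on log2(FPKM + 1) with limma 3.58.1 (R 4.3.3, 6 group means, trend, Benjamini-Hochberg). The fit covered 13981 genes at 1 FPKM or more in at least 2 libraries, and genes were called at an adjusted p under 0.05. The code was also run on simulated counts from independent libraries. Those held no replicate effect, so they do not show how the fit performs on data with one. Same-numbered replicates of WT and delta deviated together, most at 0 h (correlation of replicate differences 0.70, 0.28 and 0.37 at 0, 12 and 24 h). The numbers may therefore pair the samples. That possible pairing comes from the data, not from the labels, and the main fit has no block for it. Copies were sought with blastn 2.17.0.

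The lincRNAs and gene lists were chosen with earlier results of these data known. Genes named are the 10 highest, the up to 10 largest called rises and falls without overlap per comparison, list members, those at the threshold, the largest genotype differences, and neighbours.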

Additional observations from a re-analysis of the deposited data

How the results depend on the processing

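Of the lincRNAs, 53 were called from 0 h to 12 h, 11 from 12 h to 24 h and 85 from 0 h to 24 h. With the replicate number as a block, which pairs the libraries, 80, 18 and 104 were called. Without both replicate 1 libraries at 0 h the counts were 75, 33 and 109, and with recovered reads and voom weights 52, 9 and 82. Without a filter on low values 38, 6 and 68 were called, with more genes tested, and with a pseudocount of 0.1 55, 10 and 87. Leaving out 1 library at a time gave 29 to 93 calls from 0 h to 12 h, 4 to 17 from 12 h to 24 h and 54 to 111 from 0 h to 24 h. From 0 h to 12 h the libraries that moved the count by over 1.5 times were WT 12 h replicate 1 (35), delta 0 h replicate 2 (93) and delta 12 h replicates 1 (29) and 2 (33). From 0 h to 24 h they were delta 24 h replicates 1 (56) and 2 (54). From 12 h to 24 h they were WT 12 h replicate 2 (4), WT 24 h replicate 1 (6), both delta 0 h libraries (17 each), both delta 12 h libraries (4 each) and both delta 24 h libraries (5 each). The cause was not tested, except that each leaves fewer samples. Of the 55 changes and differences of named lincRNAs traced through every setting none reversed. List members that had not passed could change sign without both replicate 1 libraries at 0 h, by 24 h Malat1, Snhg20, Dancr and Mirg, and by 12 h several, of which Snhg12 alone then passed (0.14 against -0.77, adjusted p = 0.0097). The genotype comparisons called 0 lincRNAs under each setting tried. With the block no called change among the 55 lost its call, and the genotype differences among them stayed uncalled. Depth limits the low members, since 1 read per kilobase was worth 0.0569 to 0.111 FPKM. Intervals cover these libraries only.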
